A study of Mus musculus with 4 samples.

Results

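The coronin family of actin regulators was described in macrophages of the adult mouse dermis, as the 7 genes Coro1a, Coro1b, Coro1c, Coro2a, Coro2b, Coro6 and Coro7, of 22180 genes that the array table names by a single symbol. For each gene the transcript cluster, which is the set of probes that an array summarises into 1 value, that was brightest on average over the 4 arrays was taken. The family was selected on the measured difference between the subsets, because Coro1a and Coro2b were already known to differ in opposite directions on these arrays. The differences of its members are therefore a description without a test, and these arrays hold no measure of the family that is independent of that choice.

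The study sorted macrophages by fluorescence from digested ear skin of untreated adult C57Bl/6 mice that were heterozygous for a GFP insertion in Cx3cr1 (Cx3cr1+/gfp), a genotype that all groups shared, so that each cell had 1 intact copy of this fractalkine receptor gene. The groups were CX3CR1low and CX3CR1bright macrophages, with 2 arrays each, and each array held RNA pooled from 3 to 6 mice. For each subset the arrays stand for 2 separate litters, and the labels call the animals adult without an age. Values are RMA levels on the log2 scale, in which a difference of 1 is a factor of 2.

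Coronins are proteins built on a propeller of WD repeats that bind filamentous actin. The short coronins carry a coiled coil at the tail, through which they bind the Arp2/3 complex, the nucleator of branched filaments, and they also act together with cofilin, which severs and disassembles filaments. In leukocytes this machinery serves migration, phagocytosis and the handling of phagosomes, and Coro1a (also called p57 or TACO) is the member best known from haematopoietic cells.

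The promoter windows of the members with the largest differences are printed to show the sequence at their start sites. Both come from RefSeq, build GRCm38.p6, run 5′ to 3′ on the gene's strand from 250 bases before to 50 bases after the start, and have every match to GGGCGG, a GC box, on either strand in capitals.
Coro1a, chr7:126704767-126705066, minus strand: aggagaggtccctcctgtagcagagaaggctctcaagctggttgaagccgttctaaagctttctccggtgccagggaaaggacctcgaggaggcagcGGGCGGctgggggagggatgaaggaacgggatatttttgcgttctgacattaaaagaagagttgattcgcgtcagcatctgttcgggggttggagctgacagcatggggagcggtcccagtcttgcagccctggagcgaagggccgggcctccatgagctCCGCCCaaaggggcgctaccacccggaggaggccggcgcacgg
Coro2b, chr9:62536995-62537294, minus strand: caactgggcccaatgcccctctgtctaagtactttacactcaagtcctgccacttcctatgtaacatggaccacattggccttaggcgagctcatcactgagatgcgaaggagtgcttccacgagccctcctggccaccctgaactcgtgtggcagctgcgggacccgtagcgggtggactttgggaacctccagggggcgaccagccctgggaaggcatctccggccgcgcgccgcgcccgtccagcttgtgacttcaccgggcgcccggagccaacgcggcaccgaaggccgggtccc
The Coro1a window held 19 CpG dinucleotides and 2 GC boxes, which begin 153 bases before and 7 bases after the start site. The Coro2b window held 22 CpG dinucleotides and no GC box. GGGCGG occurred in 35.7% of 32851 promoter windows of the same length. Further motifs searched on both strands were GAGGAA (in 28.3% of windows), the core bound by PU.1, TGANTCA (7.81%), the AP-1 site, and TATAAA (13.6%), the TATA box, and neither printed window held any of them. No motif overlapped another in these windows. RefSeq windows were at hand for 6 of the 7 genes, 9 windows in all. The CpG count of the outermost window at hand was 43 for Coro2a, 42 for Coro1c, 31 for Coro6 and 16 for Coro7, against a median of 7 over all windows. For Coro6 the start site of that window lies inside the annotated gene.

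The arrays had medians of 3.65 to 3.68 over 34390 transcript clusters, a level that can be background. Cx3cr1, the gene of the gate, stood at 3.63 and 3.60 on the CX3CR1low arrays and at 8.42 and 8.44 on the CX3CR1bright arrays, which goes with the labels. The macrophage receptors Csf1r, Adgre1 and Mertk were at 8.14 or more on each array, and 11 of 11 macrophage markers lay above the array median on all 4. On CX3CR1bright replicate 2, 10 keratinocyte markers averaged 2.09 above their CX3CR1low mean, against 0.50 on CX3CR1bright replicate 1, so that array stands apart in epidermal transcripts. In sorted pools, fewer cells of a type and less RNA per cell cannot be told apart. Nothing in the labels says that same-numbered samples share a litter.

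**Figure D1:**
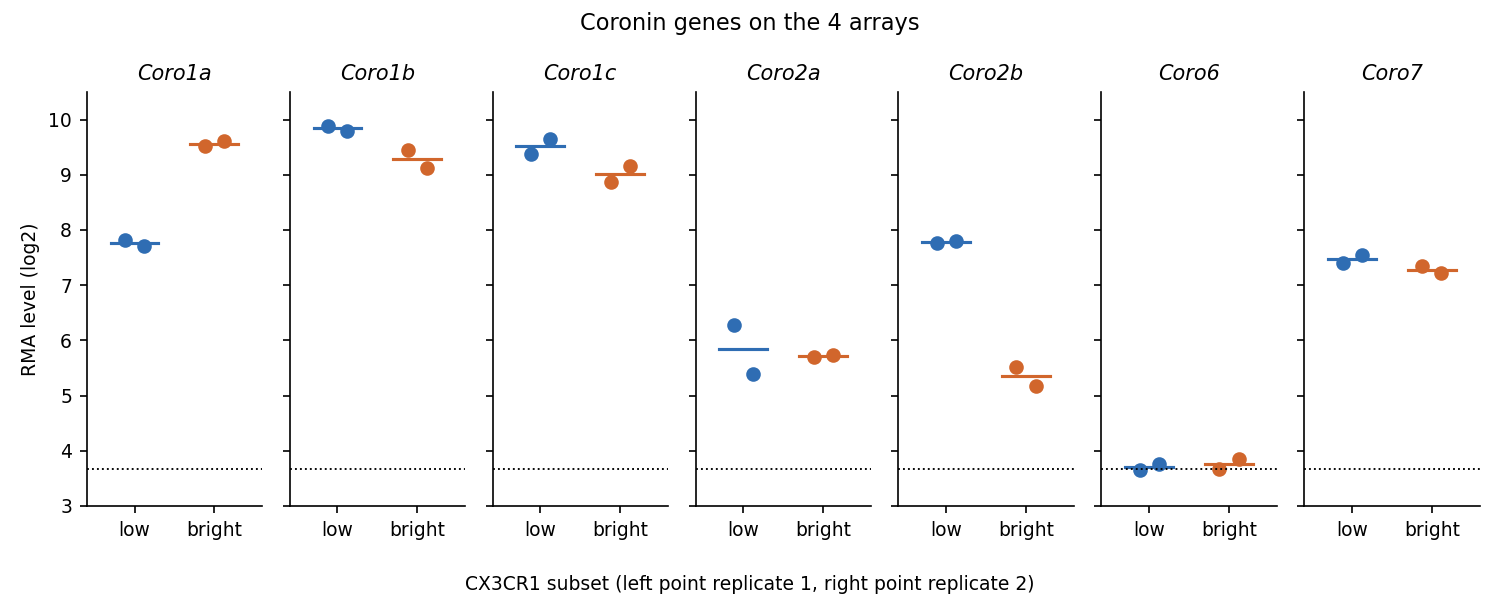
RMA levels (log2, vertical axis) of the 7 coronin genes on the 2 CX3CR1low arrays (blue) and 2 CX3CR1bright arrays (orange), with a bar at each mean and a dotted line at the mean of the array medians. Coro1a is higher on both CX3CR1bright arrays (9.52 and 9.61 against 7.82 and 7.72), Coro2b is lower (5.52 and 5.17 against 7.76 and 7.80), and Coro6 lies at the array median.

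Coro1a is the haematopoietic coronin, which is retained on phagosomes that hold living mycobacteria and binds the NADPH oxidase subunit p40phox, and whose loss in mice leaves few naive T cells. Its level (transcript cluster 17496376) was 7.82 and 7.72 on CX3CR1low replicates 1 and 2 and 9.52 and 9.61 on CX3CR1bright replicates 1 and 2. The lowest CX3CR1bright value stood 1.71 above the highest CX3CR1low value, and the replicates of a subset lay within 0.099 of each other. The mean was 7.77 ± 0.070 (SD, n = 2) in CX3CR1low and 9.57 ± 0.062 (SD, n = 2) in CX3CR1bright cells, a difference of 1.80 ± 0.18 (SE) on the log2 scale, or 3.48-fold. This was the 79th highest difference among 13133 tested genes. With 1 array left out it ran from 1.75 to 1.85, and quantile normalization or cyclic loess of the deposited values gave 1.93. The SE of each difference in this report is moderated by limma. It mixes the gene's own replicate spread with that of all tested genes, so it is not the spread of the replicates alone.

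Coro2b, first described as a brain coronin and also called ClipinC, had the opposite pattern. Its level (cluster 17527996) was 7.76 and 7.80 in CX3CR1low and 5.52 and 5.17 in CX3CR1bright macrophages. The subsets were 2.24 apart at their nearest values. CX3CR1bright replicate 2 held the lowest level, and the CX3CR1bright arrays lay 0.35 apart where the CX3CR1low arrays lay 0.038 apart. The means were 7.78 ± 0.027 (SD, n = 2) and 5.35 ± 0.25 (SD, n = 2), a difference of -2.44 ± 0.21 (SE) or 5.41-fold, the 10th lowest among the tested genes. The CX3CR1bright levels remained 1.85 and 1.49 above the medians of their arrays, so the lower group was not at the level of the typical cluster. Leaving out each array in turn gave -2.61 to -2.26. The differences of Coro1a and Coro2b stood 4.23 apart on the log2 scale.

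Coro1b and Coro1c are broadly expressed short coronins of the same class as Coro1a. Coro1b restrains Arp2/3 at the leading edge and brings in the cofilin phosphatase Slingshot. Its level (cluster 17356160) was 9.89 and 9.80 in CX3CR1low and 9.44 and 9.13 in CX3CR1bright cells, without overlap, and the difference was -0.56 ± 0.20 (SE). Without CX3CR1bright replicate 2 it was -0.40 and without CX3CR1bright replicate 1 it was -0.72, so the size depended on which CX3CR1bright array was kept while the sign did not.

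Coro1c, a coronin of lamellipodia and focal adhesions, had 2 clusters. The brighter one (17451443) stood at 9.38 and 9.65 in CX3CR1low and at 8.87 and 9.15 in CX3CR1bright cells, a difference of -0.50 ± 0.21 (SE). The nearest values of the subsets were 0.23 apart, less than the 0.27 and 0.28 between replicates. The other cluster (17440772), which the choice of the brightest left out, stood at 7.31 and 7.39 against 5.96 and 6.41, a difference of -1.16 or 2.24-fold. The clusters had the same sign and differed in size by more than 1.5 times, and which transcripts each one covers was not tested. Thus Coro1b and Coro1c lay lower on the arrays where Coro1a lay higher.

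Coro2a is the closest relative of Coro2b, and in mouse macrophages its protein is known as a component of NCoR corepressor complexes at inflammatory genes. Its brighter cluster (17425058) read 6.29 and 5.40 in CX3CR1low and 5.71 and 5.73 in CX3CR1bright cells. The CX3CR1bright values lay between the CX3CR1low values, which were 0.89 apart, the widest spread of any member within a subset. The difference was -0.12 ± 0.33 (SE) and turned to 0.32 without CX3CR1low replicate 1. The second Coro2a cluster (17413847) stood at 3.55 to 3.68 on the 4 arrays, near their medians. No difference in Coro2a was detectable with this spread, and a difference as large as that of Coro2b was not seen.

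Coro7 is the long coronin with a double propeller and no coiled coil, which works in traffic from the Golgi. Its levels (cluster 17327765) were 7.41 and 7.55 in CX3CR1low and 7.34 and 7.22 in CX3CR1bright macrophages. The difference was -0.20 ± 0.19 (SE). The subsets were only 0.066 apart at their nearest, and after quantile normalization and after cyclic loess they overlapped, with differences of -0.076 and -0.053. Coro6, known mainly from muscle, stood at 3.66 and 3.77 against 3.67 and 3.86 (cluster 17253258), within 0.18 of the median on each array. These values do not separate Coro6 transcripts from background.

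Over the family, 5 of 7 genes had no overlap between the subsets as deposited, where 50.4% of tested genes had none. Of these 1 was higher in CX3CR1bright cells, against 18.9% of tested genes, and 4 were lower, against 31.5%. After cyclic loess 25.2% of tested genes were higher and 24.1% lower without overlap, and 1 and 3 coronins were. Nothing is read from these counts, since the family was taken up with the contrast known. The median difference of the 7 genes was -0.20, against -0.070 over all tested genes. All 7 genes passed the filter on dim clusters (above the array's median on at least 2 of 4 arrays), 6 of them on all 4 arrays and Coro6 on 2. More than 2-fold apart were Coro1a and Coro2b.

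**Figure D2:**
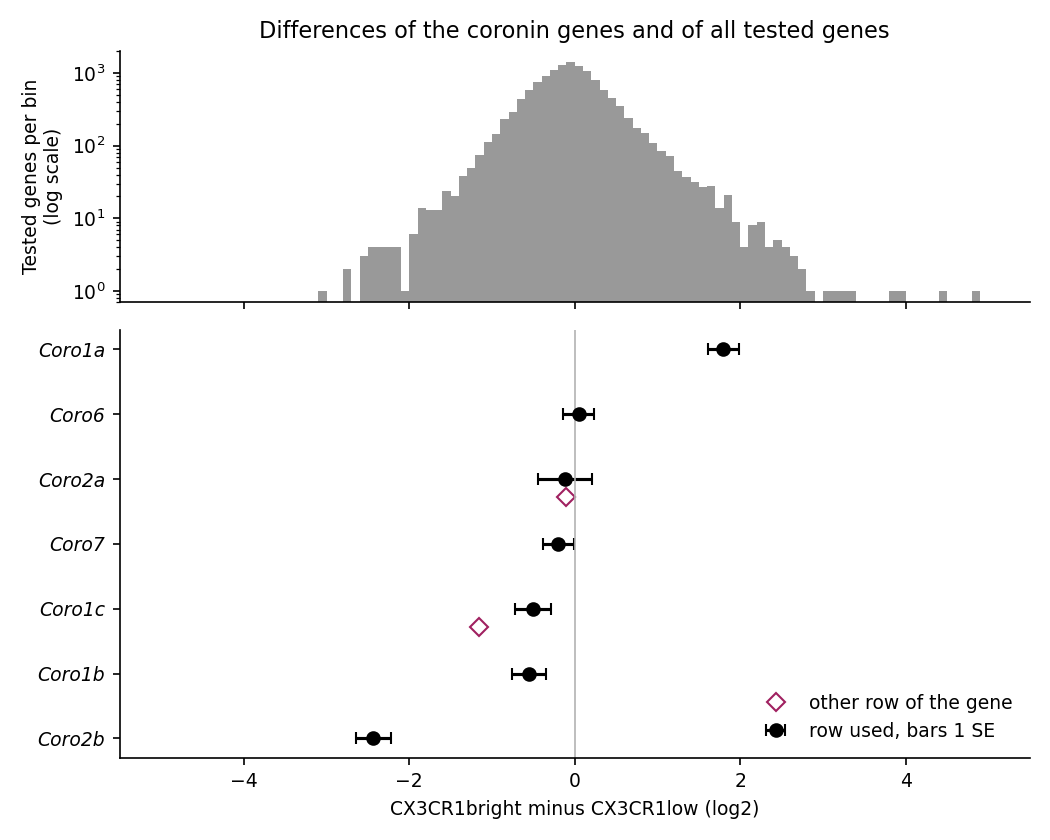
Upper panel, the number of tested genes (log scale) by their difference, CX3CR1bright minus CX3CR1low on the log2 scale. Lower panel, the difference of each coronin gene with 1 moderated SE (limma, n = 2 per subset) and, as open diamonds, the second cluster of Coro1c and of Coro2a. Coro1a at 1.80 and Coro2b at -2.44 lie in opposite tails, and the other 5 genes lie between -0.56 and 0.048.

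Which other genes ran most like the 2 leading members was asked over the 4 arrays, among 11817 tested genes outside the family, by the Euclidean distance between values centred on each gene's mean. With 4 arrays such likeness mostly restates a difference of similar size, and it is a description. Nearest to Coro1a was the receptor gene Gpr171 (distance 0.099), which stood at 5.06 and 5.01 in CX3CR1low and 6.75 and 6.76 in CX3CR1bright cells. Next came Parvg (0.11), the parvin of haematopoietic cells at integrin adhesions, then Helz2 (0.15), the peptide-loading gene H2-DMb2 (0.19) and the inhibitory receptor gene Pilra (0.25). The CX3CR1low levels of Helz2, 3.79 and 3.68, lay near the array medians.

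Nearest to Coro2b was Wfs1 (distance 0.081), a membrane protein of the endoplasmic reticulum, at 8.23 and 8.26 against 6.03 and 5.73. It was followed by the lectin gene Cd209d (0.15), whose close paralogs its probes may not separate fully, Cnrip1 (0.21), a binding partner of the cannabinoid receptor, Chp2 (0.21), a calcium-binding protein, and Adamtsl5 (0.21), an ADAMTS-like matrix protein. The differences of these 5 genes were -2.39 to -2.23, against -2.44 for Coro2b, and those of the 5 genes near Coro1a were 1.62 to 1.87.

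**Figure D3:**
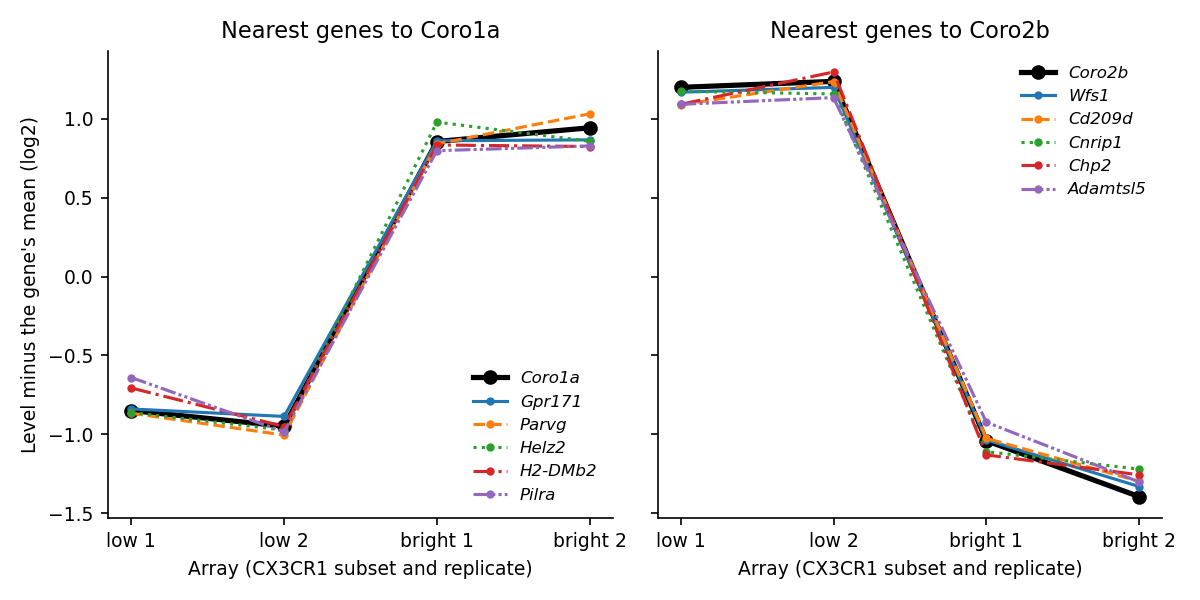
Log2 levels minus each gene's own mean (vertical axis) on the 4 arrays for Coro1a (left, black) and Coro2b (right, black) with the 5 nearest tested genes of each, lines joining the values of 1 gene. The genes near Coro1a are high on both CX3CR1bright arrays, and those near Coro2b are high on both CX3CR1low arrays.

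Coronins act with the rest of the actin machinery, and 11 lists of its genes and of known coronin partners were followed in the same contrast. Of 136 listed genes 112 were tested. None passed the threshold (limma, adjusted p under 0.05 over all tested genes, which 0.137% of tested genes passed). An unadjusted p under 0.05 was found for 24, with 10 higher and 14 lower in CX3CR1bright cells, or 8.93% and 12.5% of the listed genes tested, where 7.03% and 11.8% of all tested genes were higher and lower at that level. After cyclic loess 15 listed genes were higher and 12 lower at that level, or 13.4% and 10.7%, against 9.05% and 8.47% of all tested genes. The listed genes' median difference was -0.0097. Under an intensity trend in the variance 6 of them passed (limma), where 308 of 13133 tested genes did. These 6 were Ap1b1, Fmnl1, Gga2, Tmsb4x, Tpm4 and Vasp. Enah, a filament elongation gene chosen after its values were seen, had a difference of 2.13 without CX3CR1bright replicate 1. It stood at 6.17 on CX3CR1bright replicate 2 and at 3.95 to 4.10 on the other arrays.

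For the Arp2/3 complex, the direct target of the short coronins, 6 of 10 listed subunits were tested, and these differed little between the subsets. Actr2, Actr3b, Arpc1b and Arpc3 were not analysed here. The 6 tested subunits had differences of 0.021 to 0.23 with a median of 0.060. The smallest p belonged to Arpc5l at 0.23 ± 0.22 and Actr3, the Arp3 subunit, at 0.074 ± 0.19 (limma, adjusted p = 0.631 and 0.882). Of 20 genes that activate the complex, 7 were positive and 13 negative. Abi3, of the WAVE complex, differed by 1.33 ± 0.26 and Washc5, of the WASH complex on endosomes, by -0.65 ± 0.18 (limma, adjusted p = 0.104 and 0.171).

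Cofilin and filament disassembly genes had a median of -0.22 over 12 members, with 8 negative. Cofilin itself, Cfl1, differed by -0.37 ± 0.19 and Gmfb, which removes Arp2/3 branches, by -0.40 ± 0.21 (limma, adjusted p = 0.374 and 0.378). Among the enzymes that set cofilin's phosphorylation, with 4 of 9 positive and a median of -0.13, the Slingshot phosphatase gene Ssh3 differed by -1.06 ± 0.21 and the opposing kinase gene Limk1 by -0.88 ± 0.21 (limma, adjusted p = 0.108 and 0.137). For Ssh3 the means were 8.12 ± 0.25 and 7.06 ± 0.082 (SD, n = 2). The other Slingshot genes, Ssh1 and Ssh2, named after their values were seen, differed by -0.24 ± 0.19 and 0.38 ± 0.32 (limma, adjusted p = 0.555 and 0.574). A link of these genes to Coro1b was not tested.

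Genes of formins, profilins and Ena/VASP proteins, which build unbranched filaments, had a median of 0.22 over 14 members. The leukocyte formin gene Fmnl1 stood at 7.37 and 7.29 in CX3CR1low and at 8.43 and 8.34 in CX3CR1bright cells, a difference of 1.05 ± 0.18. Vasp, an elongation factor, differed by 0.90 ± 0.18 (limma, adjusted p = 0.0944 for Fmnl1 and 0.107 for Vasp). Among 19 capping, bundling and crosslinking genes (median 0.15) the tropomyosin gene Tpm4 differed by 0.81 ± 0.18 and the drebrin-like adaptor gene Dbnl by -0.83 ± 0.21 (limma, adjusted p = 0.125 and 0.150). Of actins and thymosins (4 tested, median -0.077), Tmsb4x, which sequesters actin monomers, differed by 1.05 ± 0.19 and Tmsb10 by -0.33 ± 0.26 (limma, adjusted p = 0.100 and 0.559).

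Partners known for single coronins did not pass the threshold either. In the NADPH oxidase (4 tested, median 0.21) the catalytic subunit gene Cybb differed by 0.69 ± 0.21, and Ncf4, which encodes the p40phox partner of Coro1a, by 0.44 ± 0.22 (limma, adjusted p = 0.184 and 0.348). In calcineurin and NFAT signalling, to which Coro1a has been linked (8 tested, median -0.047), Nfatc1 differed by 0.53 ± 0.23 and Ppp3cc by -0.47 ± 0.21 (limma, adjusted p = 0.300 and 0.321). In the NCoR list of Coro2a (5 tested, median -0.067), the LXR gene Nr1h3 differed by -0.67 ± 0.21 and Tbl1x by 0.37 ± 0.24 (limma, adjusted p = 0.192 and 0.465). The last list held the Cul3-KLHL20 ligase, which acts on Coro7 in human cells, and trans-Golgi adaptors (11 tested, median -0.37). In it 4 genes were positive and 7 negative. The adaptor genes Ap1b1 and Gga2 differed by -1.07 ± 0.20 and -1.20 ± 0.23 (limma, adjusted p = 0.103 and 0.104). The ligase genes Klhl20 and Cul3, named after their values were seen, were positive. They differed by 0.41 ± 0.21 and 0.18 ± 0.21 (limma, adjusted p = 0.356 and 0.692). All 22 genes named by rule from these lists kept their sign under the 3 other scalings. The medians of the lists of Arp2/3 activators, cofilin kinases and phosphatases, actins and thymosins, calcineurin and NFAT, and NCoR, all between -0.13 and -0.047, turned positive after cyclic loess.

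**Figure D4:**
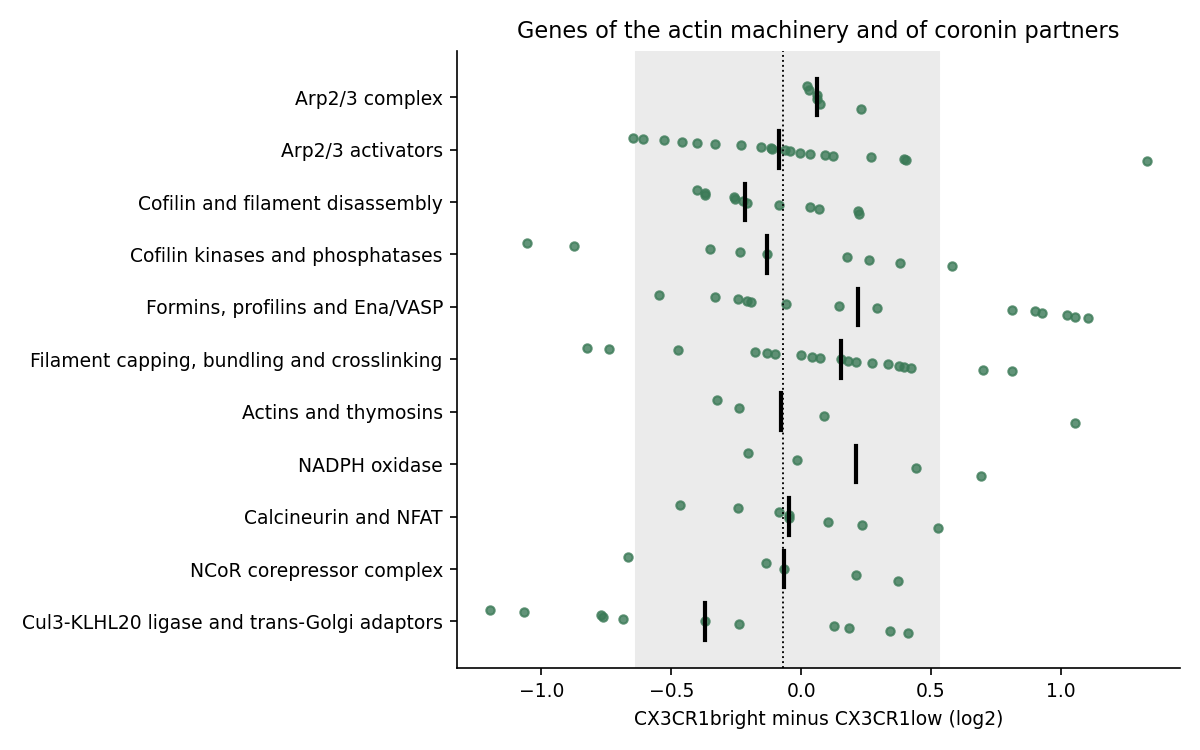
Difference, CX3CR1bright minus CX3CR1low on the log2 scale, of each tested gene (points) in 11 lists, with a black bar at the list's median, a dotted line at the median of all tested genes (-0.070) and a grey band from their 10th to their 90th percentile (-0.64 to 0.53). List medians lie between -0.37 and 0.22, and the gene farthest to the right is Abi3 at 1.33.

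Markers of other cell types moved with the coronins, and their part in the differences was not tested. T cells carry abundant Coro1a. The 11 T cell markers averaged 0.86 above their CX3CR1low mean on CX3CR1bright replicate 1 and 0.099 above it on replicate 2, with mean levels of 4.69 to 4.86 in CX3CR1low and 4.87 to 5.63 in CX3CR1bright cells, and 8 of 11 lay above the array median on all 4 arrays. Of the defining T cell receptor subunits, Cd3e read 4.28 and 3.80 in CX3CR1low against 4.79 and 3.81 in CX3CR1bright cells, and Cd3g read 4.83 and 4.64 against 6.88 and 5.43. Il7r, at 8.32 and 8.19 against 9.81 and 9.81, and Bcl11b, with a difference of 1.21 ± 0.20 (SE), both named after their values were seen, were also higher on both CX3CR1bright arrays. Cd28 was lower, at 4.96 and 4.09 against 3.79 and 2.74, and was named in the same way. Antigen receptor constant genes were not analysed here.

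Conventional dendritic cell markers (10 genes) averaged 1.03 and 1.06 above their CX3CR1low mean on the CX3CR1bright replicates, with mean levels of 5.16 and 5.28 against 6.25 and 6.28 and 9 of 10 above the median on all arrays. Flt3, a receptor of the dendritic lineage, read 4.06 and 4.58 against 6.41 and 6.50. Of this list 8 genes were higher and 2 lower in CX3CR1bright cells. The lower ones, named after their values were seen, were Irf4 and Xcr1. Irf4 read 7.81 and 8.28 against 7.40 and 7.61, and Xcr1 differed by -0.098. Monocyte markers averaged 1.10 and 0.52 above their CX3CR1low mean on these arrays, Langerhans cell markers 0.88 and 2.03, and fibroblast markers 0.88 and 1.07. All 6 monocyte, 5 Langerhans and 8 fibroblast markers and 8 of 10 keratinocyte markers lay above the array median on all 4 arrays. Mean levels in CX3CR1low and CX3CR1bright cells were 6.02 to 6.99 and 7.02 to 7.60 for the monocyte list, and 5.62 to 5.80 and 6.59 to 7.74 for the Langerhans list. They were 6.10 to 6.16 and 7.01 to 7.20 for the fibroblast list and 5.33 to 5.86 and 6.10 to 7.69 for the keratinocyte list. The monocyte receptor gene Ccr2 differed by 1.90 ± 0.22, the Langerhans gene Cd207 by 2.24 ± 0.28 and Col1a1 by 1.33 ± 0.19 (limma, adjusted p = 0.0632, 0.0706 and 0.0819). In the Langerhans list 4 genes were higher and 1, Mfge8, lower in CX3CR1bright cells (-0.45). On CX3CR1bright replicates 1 and 2, Cdh1 read 6.47 and 9.24 and Epcam 4.53 and 6.73. On the same arrays Cd207 read 6.97 and 7.54 and Il1r2 8.18 and 7.98. In the monocyte list 5 were higher and 1, S100a4, lower (-0.10). Among the 5, Ly6c2 read 7.54 and 3.90 in CX3CR1low against 6.89 and 4.66 in CX3CR1bright cells. Its difference was 0.051 ± 1.33, and the replicates of a subset lay farther apart than the subsets. Mfge8, Cdh1, Epcam, Il1r2, S100a4 and Ly6c2 were named after their values were seen. The keratinocyte gene Krt14 read 8.60 and 10.6 on the CX3CR1bright arrays and 8.54 and 7.64 on the CX3CR1low arrays. B cell markers had 0 of 5 genes above the median on all arrays and 2 below it on all, Cd79a among the latter. Cd79b, named after its values were seen, read 5.01 and 5.08 in CX3CR1low against 5.50 and 3.44 in CX3CR1bright cells.

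Beside the lower members, macrophage markers averaged 0.28 and 0.27 below their CX3CR1low mean on CX3CR1bright replicates 1 and 2, and mast cell markers 0.41 and 0.34 below. Mean levels of the mast cell list were 6.58 and 6.69 in CX3CR1low and 6.23 and 6.29 in CX3CR1bright cells. Of its 7 genes 6 lay above the array median on all 4 arrays. The macrophage list was mixed, with 8 genes lower and 3 higher in CX3CR1bright cells and differences from -1.10 to 0.54. Schwann cell and neuron markers, followed because Coro2b is a brain coronin, averaged 0.16 above their CX3CR1low mean on both CX3CR1bright arrays. CX3CR1low replicates 1 and 2 lay 0.17 above and 0.17 below that mean, so both CX3CR1bright values fell within the CX3CR1low range. Of 5 such markers tested, 3 were higher and 2 lower in CX3CR1bright cells. Sox10 read 3.75 and 3.49 in CX3CR1low against 3.89 and 4.25 in CX3CR1bright cells. The lower ones, named after their values were seen, were Tubb3 and Uchl1. Tubb3 read 4.55 and 3.72 against 3.54 and 3.42, and Uchl1 differed by -0.17. The muscle gene Acta1, followed for Coro6, read 3.91 and 5.30 against 3.51 and 4.46. The differences of Coro1a and Coro2b were 1.75 and -2.26 without CX3CR1bright replicate 2, where the keratinocyte markers were highest, and 1.84 and -2.61 without replicate 1.

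**Figure D5:**
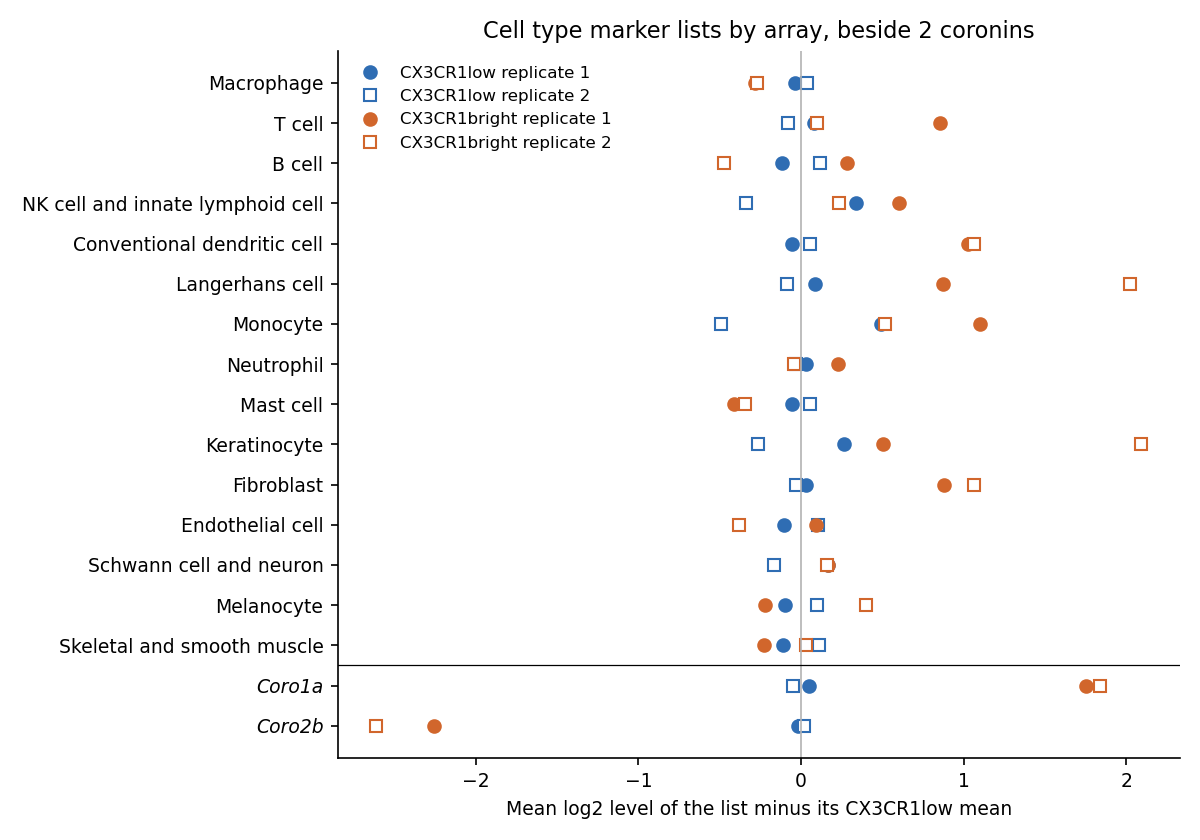
Mean log2 level of each cell type marker list on each array minus its CX3CR1low mean (horizontal axis), with Coro1a and Coro2b shown the same way below the line; blue is CX3CR1low, orange CX3CR1bright, filled circles replicate 1 and open squares replicate 2. Keratinocyte markers reach 2.09 on CX3CR1bright replicate 2 alone, dendritic cell markers 1.03 and 1.06, and Coro1a about the same value on both CX3CR1bright arrays.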

How the data were processed

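RNA from sorted dermal macrophages was hybridised to Affymetrix whole-transcript arrays after WT Pico labelling, per the labels' protocols. Per the submitters' processing notes, the authors ran RMA in Affymetrix Expression Console 1.4 to make the deposited log2 values; RMA corrects background, equalises array distributions and summarises probes. Background correction, summarisation and detection calls could not be varied here. The genome build is not given in the sources used here.

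Of 34390 clusters, 23521 carried 1 symbol in the platform annotation, and the brightest cluster of each gene left 22180 genes. Those above the array median on at least 2 of 4 arrays (13133) entered limma (3.58.1, under R 4.3.3; linear fit with empirical Bayes moderation, two-sided, Benjamini-Hochberg over all tested genes, threshold 0.05), with 2 residual and 3.28 prior degrees of freedom. The fit was tested on simulated data. Precision is limited by the number of arrays, 2 a subset, and a p-value here reflects how far pools of mice differ.

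The members and lists were chosen with earlier results of these data known. Genes named are the 7 members, the 2 of smallest p in each of 11 lists, the 5 nearest to Coro1a and to Coro2b, leaving out predicted genes, clone-derived genes, small RNAs and other genes not coding for protein, preset cell type markers from 15 lists, and Cx3cr1. Further list genes, marked in the text, were named or chosen after their values were seen. Of 136 listed genes 18 were not analysed here and 6 were too dim; 1 further list is not reported here. Alternatives were other filters, scalings, variance priors, the mean of a gene's clusters, the replicate number as a block and each array left out. The second clusters of Coro1c and Coro2a were added as an alternative after seeing the data.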

Additional observations from a re-analysis of the deposited data

How the results depend on the processing

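Coro1a kept a positive and Coro1b, Coro1c and Coro2b a negative difference under each setting run. The difference of Coro1a was 1.93 after quantile normalization and 1.93 after cyclic loess, and 1.75 to 1.85 with 1 array left out; that of Coro2b was -2.45 to -2.30 over the other settings and -2.61 to -2.26 with 1 array left out. Coro1c was -0.83 as the mean of its clusters, and Coro2a and Coro6 changed sign with 1 array left out. All tested genes past the threshold numbered 18 and were 88 with a filter on all 4 arrays, 1 with no filter, 1 after quantile normalization, 33 after cyclic loess, 308 under an intensity trend, 1 under a robust prior and 0 to 154 with 1 array left out. Partner genes past it numbered 0, and were 6 under the trend and 0 to 1 with 1 array left out. With the replicate number as a block, 0 genes passed (limma, 2637 at an unadjusted p under 0.05), the coronin differences were unchanged by construction, and the replicate 1 arrays' deviations correlated at 0.16, for numbers not said to pair samples. The causes were not tested. Levels near the array median limit what can be said of Coro6 and the second Coro2a cluster.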
